A study of Mus musculus with 4 samples.

Results

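Interferon regulatory and interferon-induced genes were compared between hearts of heterozygous and of wild-type mice. Members were all genes whose symbol in the array annotation begins with Irf, Ifi, Ifn, Isg, Oas or Gbp, or with Mx or Stat followed by a digit, taken from probe sets with a single symbol. This name rule, which used no measured value, found 54 genes on 62 probe sets, of 8251 named genes and 12422 probe sets other than controls. A further 7 probe sets that name such a gene together with other genes were left out. The name rule also takes in a few genes that are not interferon targets by function, such as Irf2bp1, a corepressor partner of an interferon regulatory factor, and Stat6, a transducer of interleukin signals.

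The series measured total RNA of whole murine heart on 1-colour oligonucleotide arrays. It held 2 samples of heterozygous mice and 2 samples of wild-type mice, all adult males of 8 to 16 weeks on a 129/Black Swiss background. The gene in which the mice were heterozygous is not reported here, and the labels name no treatment. The RNA of 5 hearts was pooled for a sample, so animal-to-animal spread is averaged within a sample, and the labels do not say that the pools came from separate animals. The p-values therefore measure only the spread between these 4 samples.

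Interferons are cytokines of antiviral and antibacterial defence. Alpha and beta interferons bind a receptor made of Ifnar1 and Ifnar2, while gamma interferon, made mainly by T and NK cells, binds a receptor made of Ifngr1 and Ifngr2. Janus kinases on these receptors phosphorylate STAT proteins, which enter the nucleus and, with or without the partner Irf9, bind interferon-stimulated response elements (ISRE) or gamma-activated sites (GAS) in target promoters. The targets include antiviral proteins, guanylate-binding and immunity-related GTPases, and further IRF factors. Several members are also high in lymphocytes and other blood cells at rest, Irf8 and Irf4 among them.

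Of the 54 member genes, 48 were found in a RefSeq table of promoter windows (GRCm38.p6), each running from 250 bases before to 50 bases after a transcript start. An ISRE-like motif, spelled GAAA, then 2 bases of any kind, then GAAA, on either strand, occurred in 41.7% of the 48 genes, against 3.99% of all 27025 genes of that table. A GAS-like motif, spelled TTC, 3 bases of any kind and GAA, which reads the same on both strands, occurred in 35.4% of member genes, against 9.55% of all. A motif of the kappaB type, spelled GGGA, 4 bases of any kind and CC, on either strand, occurred in 25% of member genes and in 22.9% of all. ISRE-like matches lay mainly in promoters of ligand genes (7 of 9) and of induced effectors (12 of 22), and were found in 0 of 8 IRF and 0 of 4 receptor genes. Among members lower in the heterozygous pools with a window, 3 of 10 held an ISRE-like and 5 of 10 a GAS-like match, and among tested members that did not pass the numbers were 10 of 23 and 7 of 23. Matches are a description of letters and do not show that a factor binds there.

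The windows below were chosen for motif matches in genes that were lower, or for lying beside such genes, and not for the size of the decrease. Ifi47, with the largest decrease of the tested members, held no ISRE-like and no GAS-like match in its window and is not shown. Gbp7, Gbp2b and Gbp2 are the members lower in the heterozygous pools that hold an ISRE-like match, and Gbp3 lies directly between Gbp7 and Gbp2b. These 4 guanylate-binding genes follow each other on chromosome 3 with 0 other coding genes between them, and their plus-strand windows are chr3:142530086-142530385, chr3:142559794-142560093, chr3:142594597-142594896 and chr3:142620413-142620712. Irf1 (chr11:53769764-53770063, plus strand) and Irf8 (chr8:120736108-120736407, plus strand) are the 2 IRF genes that were lower, and both windows hold GAS-like letters. Capitals mark ISRE-like and GAS-like matches. Gbp3, Irf1 and Irf8 were added to the display after their values were seen.
Gbp7: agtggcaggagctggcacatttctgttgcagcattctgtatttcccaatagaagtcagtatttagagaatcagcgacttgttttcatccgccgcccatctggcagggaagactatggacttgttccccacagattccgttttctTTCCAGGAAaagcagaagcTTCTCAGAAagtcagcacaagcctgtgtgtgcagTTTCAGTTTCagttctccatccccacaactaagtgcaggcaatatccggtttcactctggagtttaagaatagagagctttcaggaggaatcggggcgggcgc
Gbp3: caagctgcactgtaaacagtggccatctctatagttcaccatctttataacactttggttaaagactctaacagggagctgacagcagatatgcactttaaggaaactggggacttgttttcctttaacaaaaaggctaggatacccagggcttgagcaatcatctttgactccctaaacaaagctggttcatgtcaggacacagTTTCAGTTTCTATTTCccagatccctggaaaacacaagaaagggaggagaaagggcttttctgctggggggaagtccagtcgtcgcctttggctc
Gbp2b: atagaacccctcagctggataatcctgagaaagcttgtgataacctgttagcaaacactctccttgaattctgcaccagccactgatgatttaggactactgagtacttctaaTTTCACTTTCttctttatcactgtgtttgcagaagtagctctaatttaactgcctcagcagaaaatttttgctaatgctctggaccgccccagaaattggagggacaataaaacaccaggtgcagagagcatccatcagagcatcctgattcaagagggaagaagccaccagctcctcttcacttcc
Gbp2: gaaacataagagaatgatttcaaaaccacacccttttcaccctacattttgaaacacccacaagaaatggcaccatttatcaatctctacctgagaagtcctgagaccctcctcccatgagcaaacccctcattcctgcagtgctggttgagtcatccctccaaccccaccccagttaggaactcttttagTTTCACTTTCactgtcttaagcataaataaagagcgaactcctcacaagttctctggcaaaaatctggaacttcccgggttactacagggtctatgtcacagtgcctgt
Irf1: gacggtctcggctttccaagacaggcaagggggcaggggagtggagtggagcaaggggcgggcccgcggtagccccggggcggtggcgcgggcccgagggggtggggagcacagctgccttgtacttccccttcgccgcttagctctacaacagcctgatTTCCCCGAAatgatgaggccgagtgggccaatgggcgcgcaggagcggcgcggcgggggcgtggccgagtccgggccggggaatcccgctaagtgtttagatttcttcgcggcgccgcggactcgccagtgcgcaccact
Irf8: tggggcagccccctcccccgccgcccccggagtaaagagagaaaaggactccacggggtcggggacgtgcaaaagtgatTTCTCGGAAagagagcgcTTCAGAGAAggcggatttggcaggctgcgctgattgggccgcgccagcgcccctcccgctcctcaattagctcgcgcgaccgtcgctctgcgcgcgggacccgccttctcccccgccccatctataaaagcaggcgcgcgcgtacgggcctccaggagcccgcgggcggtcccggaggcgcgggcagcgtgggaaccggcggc
In Gbp7 the ISRE-like letters TTTCAGTTTC ended 44 bases before the start, and 2 GAS-like matches, TTCCAGGAA and TTCTCAGAA, lay upstream of them. Gbp3 held 2 ISRE-like matches that overlap each other, so they appear as a single run of capitals. The Gbp2b and Gbp2 windows share the ISRE-like letters TTTCACTTTC, 128 and 50 bases before their starts. The GAS-like match of Irf1 was TTCCCCGAA, and those of Irf8 were TTCTCGGAA and TTCAGAGAA. No ISRE-like match overlapped a GAS-like one in these 6 windows.

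Signals are linear intensities as deposited, in arbitrary units, and levels of different genes are not compared with each other. Probe sets whose mean over the 4 arrays fell in the lowest 40% were not tested, which left 41 member probe sets of 37 genes and set aside 21. A log2 change is heterozygous minus wild type, with limma's standard error (SE), and a member passed when its p, adjusted over all 7453 tested probe sets, was under 0.05. Of all tested probe sets 38.3% passed, 17.9% as higher and 20.4% as lower. The split of all calls depended on scaling: higher calls made up 46.8% of calls on the deposited scale, 62.5% with arrays shifted to a common median and 5.24% with arrays centred on sarcomere genes. On these scales the median over all 7453, as a log2 change, was 0.00, 0.18 and -0.63.

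In the heterozygous pools 13 of the 41 tested member probe sets were lower (31.7%, against 20.4% of all tested probe sets) and 1 was higher (2.44%, against 17.9%). The other 27 did not pass. The median log2 change of the 41 was -0.40, beside 0.00 for all tested probe sets, a difference of -0.40, and that difference was -0.36 with quantile normalization and -0.37 with cyclic loess. A shift of whole arrays, to a common median or to sarcomere genes, leaves it at -0.40 by construction. Counted by gene on the brightest probe set, 12 of 37 genes were lower and 1 was higher, against 19.5% lower and 19.5% higher of all 5692 tested genes. At least 2-fold decreases were seen in 6 of the 41 probe sets, against 11.7% of all. Of the tested members, 5 had a heterozygous mean below the lowest mean signal tested (348.95), so their place among the tested rested on the wild-type pools (Stat4, Gbp2b, Ifi47, Ifit1 and Ifit2). The member counts are therefore a description. With all 62 member probe sets tested, 4 were lower (6.45%, against 5.83% of all probe sets) and they were those of Ifi47, Irf8, Gbp7 and Gbp2b. With single pools left out 7 or 8 of the 41 were lower: 19.5% without heterozygous pool 1 and 17.1% without heterozygous pool 2 (14.5% of all tested probe sets in both cases), 17.1% without wild-type pool 1 (15.6% of all) and 19.5% without wild-type pool 2 (15.6% of all). With arrays centred on sarcomere genes 33 of 41 were lower (80.5%, against 52.5% of all).

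**Figure D1:**
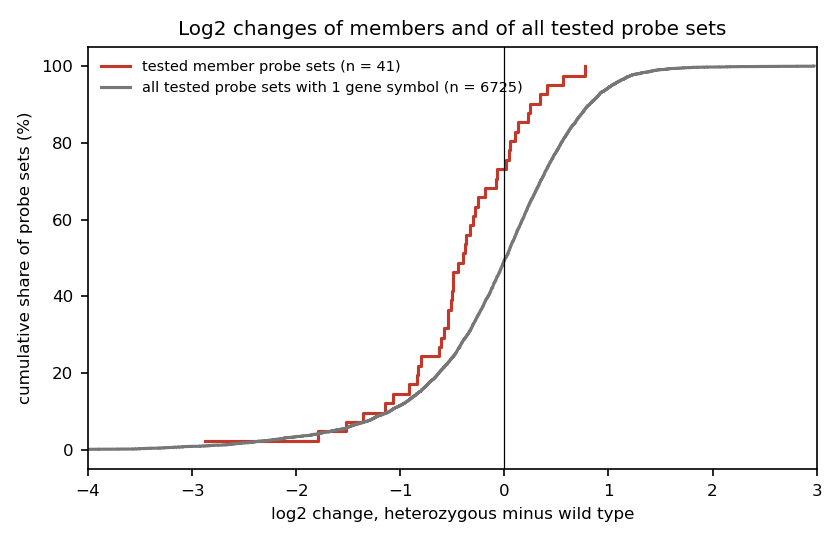
Cumulative share of probe sets (percent) against log2 change, heterozygous minus wild type, for the 41 tested member probe sets and for the 6725 tested probe sets with 1 gene symbol. The member curve lies left of the other over most of its middle, with a median of -0.40, and ends below a log2 change of 1.

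Between the 2 heterozygous pools the tested members differed by a median of 0.22 on the log2 scale, and between the 2 wild-type pools by 0.17. Their genotype means differed by a median of 0.49. The same values for all tested probe sets were 0.21, 0.21 and 0.46. For 24 member probe sets both heterozygous pools lay below both wild-type pools (35.5% of all tested probe sets), for 5 they lay above (34.6% of all), and 12 overlapped.

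Markers of several cell types moved in the same pools, in both directions. Of 18 tested markers of T lymphocytes and thymus, 17 were lower and Lat was not (median log2 change -2.95). Their summed signal was 24466 to 25040 in the heterozygous pools, against 178015 to 180003 in the wild-type pools. Markers of thymic epithelium (4 of 6 lower, median -2.52) and of B lymphocytes (5 of 8 lower, median -0.80) were lower as well. Of 10 macrophage markers 1 was lower and 1 higher (median -0.07), and their summed signal was 25162 to 25695 in the heterozygous pools, against 25135 to 27823 in the wild-type pools. Of 15 cardiomyocyte markers chosen to check the label heart, 14 were on the array with 1 symbol and all 14 passed the filter on dim probe sets. Of these 12 were higher (median 0.62), and their summed signal was 989178 to 1008860 in the heterozygous pools, against 639198 to 700418 in the wild-type pools. Markers of endothelium (8 of 9 higher, median 0.96) and of fibroblasts (8 of 9 higher, median 0.75) were higher too. Their summed signals were 32785.6 to 37209.8 for endothelium and 100005 to 104210 for fibroblasts in the heterozygous pools, against 17422.5 to 18897.1 and 56520.9 to 58695.4 in the wild-type pools. Of 3 tested markers of lung epithelium, Sftpc (2.25) and Scgb1a1 (1.32) were higher and Napsa (-3.29) was lower. Gzma, the 1 tested marker of NK cells (-2.36), and Ccr7, 1 of 5 of dendritic cells (-2.29), were lower, while 1 of 4 neutrophil markers was lower and 2 of 4 erythroid markers were higher. The heterozygous means of Gzma (224.2) and Ccr7 (138.5) lay below the lowest mean tested (348.95), so both were tested through their wild-type pools. The other 6 NK markers on the array were too dim to be tested. Some other markers, such as Rag2, Ptcra and Krt17 among the lower and Nos3 among the higher, likewise passed the filter through 1 genotype. No T cell or thymus marker was at 0 in any sample, but dim probe sets also read above 0 on these arrays. The readings therefore do not show that such cells were present in every sample. The part of these cells in the members' decreases was not tested, and in whole tissue fewer cells of a type and less RNA per cell cannot be told apart.

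**Figure D2:**
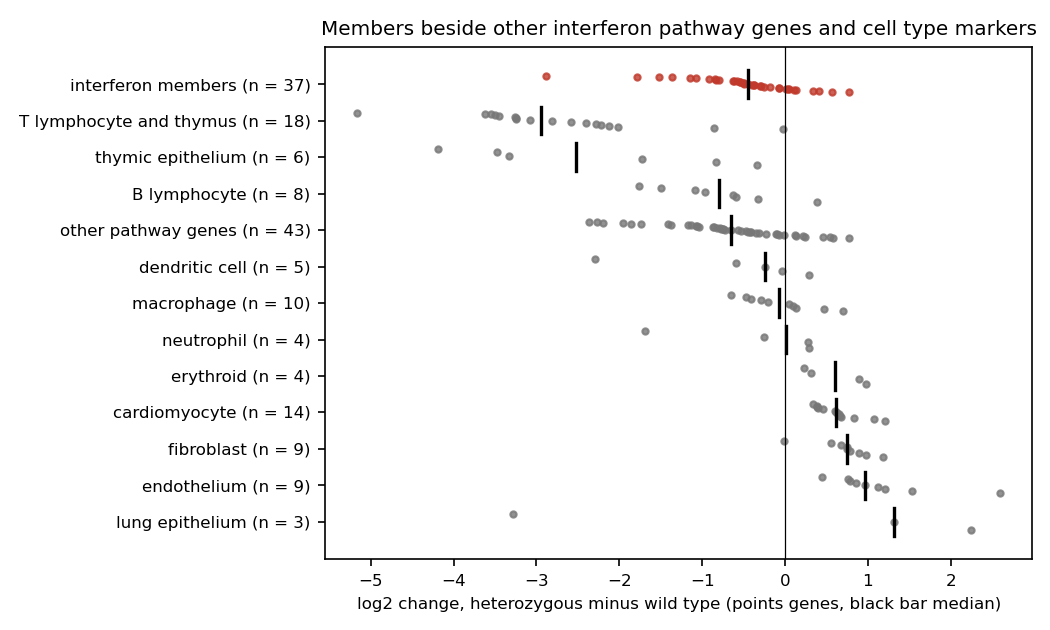
Log2 change, heterozygous minus wild type, of single genes (points) in the interferon members, the other interferon pathway genes and lists of cell type markers, with the median of each list as a black bar and the number of tested genes in brackets. The members, with a median of -0.45 over 37 genes, lie between the markers of lymphocytes and those of cardiomyocytes, near the other pathway genes (-0.66 over 43).

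Interferon genes themselves gave little signal. The 10 ligand genes lay on 11 probe sets, of which 9 were too dim to be tested, with signals of 6.2 to 260.8. Ifng, which encodes gamma interferon, read 6.2 and 12.5 in the heterozygous pools, against 21.4 and 29.7 in the wild-type pools, all under the floor of 36.25 that stands for the lowest signals. Ifnb1, of beta interferon, read 106.7 and 39.3 in the heterozygous pools, against 83.3 and 32.4 in the wild-type pools, so its samples overlapped. The tested ligands were the alpha interferon genes Ifna5 and Ifnab, each on a probe set of the kind that detects several members of a gene family, and neither passed. Ifna5 read 612.3 and 850.8 in the heterozygous pools, against 275.2 and 649.6 in the wild-type pools (log2 change 0.77, SE 0.40, adjusted p = 0.164). Wild-type pool 1 was the low sample, and without wild-type pool 2 the change was 1.39 and passed (adjusted p = 0.0184).

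Of the 4 receptor genes, all tested, 2 were lower and 1 was higher (19.5% of all tested genes in either direction). Ifnar1, the first chain of the alpha and beta interferon receptor, read 708 and 866.6 in the heterozygous pools, against 1512.7 and 1227.5 in the wild-type pools (log2 change -0.80, SE 0.21, adjusted p = 0.0168). Ifngr1, the ligand-binding chain of the gamma interferon receptor, read 1021.8 and 1269.5 in the heterozygous pools, against 1494.1 and 2029.7 in the wild-type pools (log2 change -0.61, SE 0.21). Its adjusted p of 0.04999 was just under the threshold. Ifngr2, the signalling chain of that same receptor, went the other way, with 3770.1 and 4562.2 in the heterozygous pools, against 2595.9 and 3037.6 in the wild-type pools (log2 change 0.56, SE 0.17, adjusted p = 0.0288). It was the only member that passed as higher. The pools of these 3 genes stood apart by genotype, as for 35.5% of all tested probe sets on the lower side and 34.6% on the higher. Ifnar2, the other chain of the alpha and beta receptor, did not pass on either probe set. On the brighter it read 1127.9 and 1016.8 in the heterozygous pools, against 1329.2 and 1227.4 in the wild-type pools (log2 change -0.25, SE 0.19, adjusted p = 0.312). Ifnar1 and Ifngr2 are adjacent coding genes on chromosome 16, so neighbours differed in direction.

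The receptor calls changed when single pools were left out. Ifnar1 did not pass without heterozygous pool 1 (-0.65) or wild-type pool 1 (-0.65). Ifngr1 did not pass without heterozygous pool 1 (-0.46), heterozygous pool 2 (-0.77) or wild-type pool 2 (-0.39), nor under 3 other scalings (-0.43 with a common median, -0.47 with quantile normalization and -0.56 with cyclic loess). Ifngr2 did not pass without heterozygous pool 1 (0.70), heterozygous pool 2 (0.43) or wild-type pool 1 (0.45), and its change turned to -0.068 with arrays centred on sarcomere genes.

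STAT genes showed small differences. Of 7 probe sets of 5 genes, 1 was lower (14.3%, against 20.4% of all tested probe sets) and 6 did not pass. Stat3, the transducer of interleukin-6 type cytokines, read 3543.7 and 3779 in the heterozygous pools, against 2628.4 and 2896.7 in the wild-type pools (log2 change 0.41, SE 0.15, adjusted p = 0.0646). Its second probe set had a log2 change of 0.22. Neither passed, although the pools did not overlap on either (as for 34.6% of all tested probe sets on the higher side). The brighter passed with arrays shifted to a common median (0.59), and its change was -0.22 with arrays centred on sarcomere genes. Stat5a and Stat5b, transducers of growth hormone and interleukin signals, are neighbours of Stat3 on chromosome 11 and lay on the other side of 0. On the brighter probe set Stat5a read 3255.4 and 3441.2 in the heterozygous pools, against 3635.2 and 3987.9 in the wild-type pools (log2 change -0.19, SE 0.15, adjusted p = 0.364). The other Stat5a probe set, of the kind that detects a gene family, passed as lower, with 1883.3 and 1692.1 in the heterozygous pools, against 2475.7 and 2571 in the wild-type pools (log2 change -0.50, SE 0.16, adjusted p = 0.0387). The probe sets of Stat5a therefore disagreed on the call but not on the direction. Stat5b read 595.3 and 689.2 in the heterozygous pools, against 1030.1 and 890.3 in the wild-type pools (log2 change -0.58, SE 0.22, adjusted p = 0.0664). Stat4, which carries interleukin-12 signals in T and NK cells, read 308.2 and 347.2 in the heterozygous pools, against 379.3 and 419.8 in the wild-type pools (log2 change -0.29, SE 0.34, adjusted p = 0.546). Stat6, which carries interleukin-4 signals, read 2161.9 and 2076.2 in the heterozygous pools, against 2170 and 2289.5 in the wild-type pools (log2 change -0.07, SE 0.16, adjusted p = 0.749).

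Among the IRF genes, 2 of 7 tested were lower (28.6%, against 19.5% of all tested genes) and none was higher by limma (against 19.5% of all). At an unadjusted p under 0.05, 0 were higher as well, and the share of all genes at that threshold is not given. With so few genes, the share of lower IRF genes is near the background. Irf8, a factor that directs the development of myeloid and B cells, had the larger decrease. It read 792.3 and 785.9 in the heterozygous pools, against 2796.4 and 2647.5 in the wild-type pools (3.45-fold lower, log2 change -1.79, SE 0.17, adjusted p = 0.000112). Irf1, a factor induced by gamma interferon that acts on antigen presentation genes, read 1100.9 and 828.3 in the heterozygous pools, against 2128.3 and 2087.5 in the wild-type pools (2.21-fold lower, log2 change -1.14, SE 0.20, adjusted p = 0.00228). The heterozygous pools of these genes lay below every wild-type pool (as for 35.5% of all tested probe sets), and both genes passed with any single pool left out. Irf4, a factor of lymphocytes, was too dim to be tested, and it read 221.1 and 32.1 in the heterozygous pools, against 484.9 and 480.3 in the wild-type pools.

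The IRF factors that start or carry the antiviral response did not pass. Irf3, which is activated by viral nucleic acids, read 944.7 and 741.4 in the heterozygous pools, against 1018.5 and 1145.2 in the wild-type pools (log2 change -0.37, SE 0.21). Irf5, which acts after Toll-like receptors, read 547.8 and 625.1 in the heterozygous pools, against 732.9 and 949.4 in the wild-type pools (log2 change -0.51, SE 0.24). Irf9, the DNA-binding partner of STATs after alpha interferon, read 1062.8 and 1640.3 in the heterozygous pools, against 1839.7 and 1640.2 in the wild-type pools (log2 change -0.40, SE 0.23). Heterozygous pool 2 and wild-type pool 2 were thus level for Irf9, and the difference rested on the other pools. Irf7, the amplifier of alpha interferon production and itself a target of it, read 514.2 and 382.5 in the heterozygous pools, against 553.3 and 296.7 in the wild-type pools (log2 change 0.13, SE 0.38). A dimmer Irf7 probe set, of the kind that detects a gene family, changed by 0.25. Irf2bp1 read 2749.8 and 2717.8 in the heterozygous pools, against 2418.3 and 2669.4 in the wild-type pools (log2 change 0.11, SE 0.16). Adjusted p-values of these genes were 0.206 for Irf3, 0.128 for Irf5, 0.203 for Irf9, 0.818 for Irf7 and 0.633 for Irf2bp1.

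**Figure D3:**
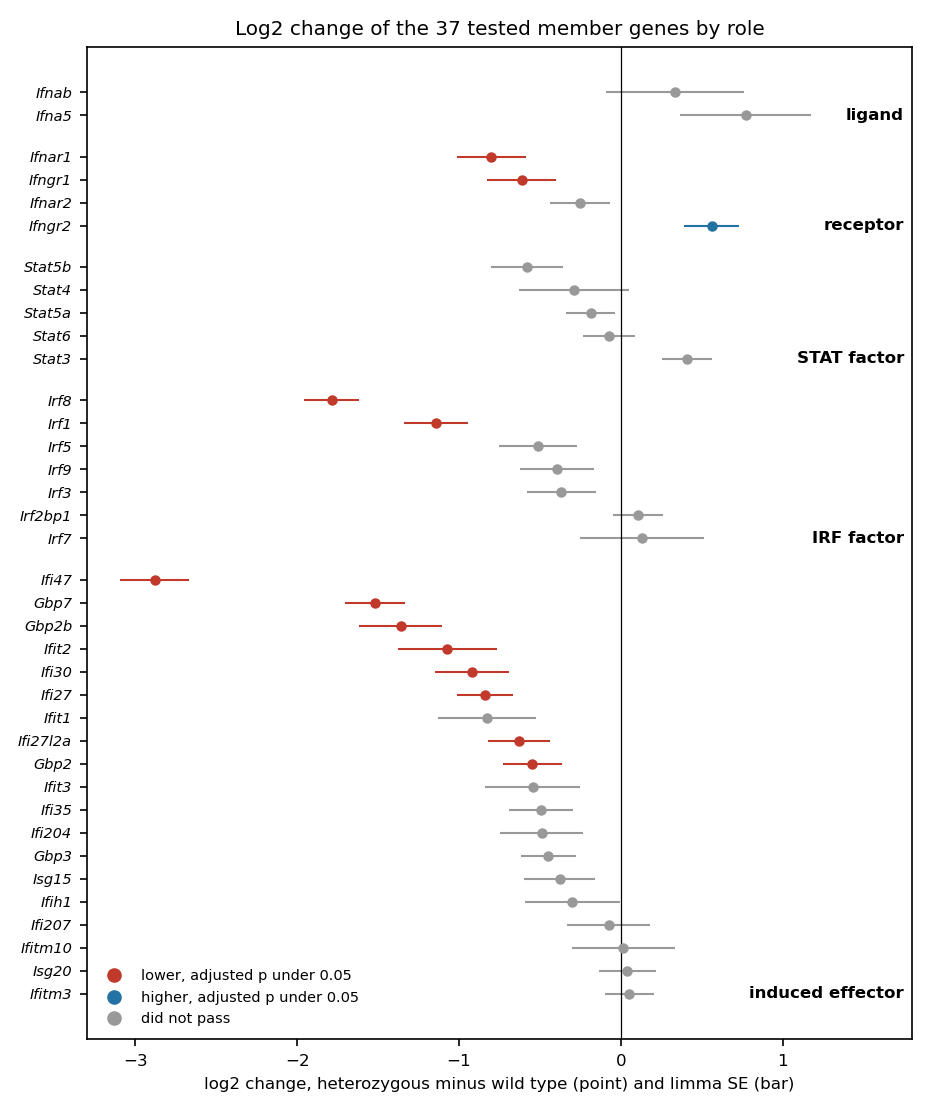
Log2 change, heterozygous minus wild type, of the 37 tested member genes on their brightest probe set, grouped by role, with limma's SE as bars. Red points are lower and the blue point is higher at an adjusted p under 0.05, and grey points did not pass. Ifi47 lies farthest from 0, at -2.88, and Ifngr2 is the blue point at 0.56.

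Induced effectors made up 19 of the 37 tested member genes. Of these 19, 8 were lower (42.1%, against 19.5% of all tested genes) and 0 were higher by limma (against 19.5% of all). At an unadjusted p under 0.05, 0 were higher as well, and the share of all genes at that threshold is not given. Among the 8, Ifi47, Gbp2b and Ifit2 had heterozygous means below the lowest mean tested (348.95). Their place among the tested rested on the wild-type pools, so the share of 42.1% is a description. Roles were not tested against each other. The median log2 change of the 19 was -0.54. Ifi47, an immunity-related GTPase induced by gamma interferon, fell most of all members. It read 277.5 and 315.1 in the heterozygous pools, against 2090.2 and 2265.5 in the wild-type pools (7.36-fold lower, log2 change -2.88, SE 0.21, adjusted p = 2.98e-05). Of all tested probe sets, 1.21% had as low a value or a lower one.

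Guanylate-binding proteins are large GTPases that coat vacuoles of intracellular pathogens. Of the 4 tested genes 3 were lower, against 19.5% of all tested genes. Gbp7 read 1185.7 and 1387.6 in the heterozygous pools, against 3250.6 and 4143.4 in the wild-type pools (2.86-fold lower, log2 change -1.52, SE 0.19, adjusted p = 0.000408). Gbp2b read 343.4 and 347.4 in the heterozygous pools, against 926.8 and 849.1 in the wild-type pools (2.57-fold lower, log2 change -1.36, SE 0.25, adjusted p = 0.00333). Gbp2 showed less, with 1337.7 and 1144.9 in the heterozygous pools, against 1940.6 and 1681.2 in the wild-type pools (log2 change -0.55, SE 0.18, adjusted p = 0.0436). That call did not hold with any of the pools left out (-0.66 without the first heterozygous pool and -0.43 without the second, -0.44 without the first wild-type pool and -0.65 without the second), nor with a common median (-0.37), quantile normalization (-0.41), cyclic loess (-0.50) or no mean-variance trend (adjusted p = 0.0680). Gbp3, between Gbp7 and Gbp2b on the chromosome, read 1514.5 and 1621.4 in the heterozygous pools, against 2004.7 and 2276.7 in the wild-type pools and did not pass (log2 change -0.45, SE 0.17, adjusted p = 0.0656). All 4 genes had both heterozygous pools below both wild-type pools, as did 35.5% of all tested probe sets. The size of the difference ran from 0.45 to 1.52 on the log2 scale within the cluster.

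The IFIT genes encode antiviral proteins that bind foreign RNA and lie close together on chromosome 19. Ifit2 passed as lower, with 278.7 and 367 in the heterozygous pools, against 616.5 and 732.1 in the wild-type pools (log2 change -1.07, SE 0.30, adjusted p = 0.0222). Ifit1 read 307.1 and 327.6 in the heterozygous pools, against 591.8 and 536.1 in the wild-type pools (log2 change -0.83, SE 0.30, adjusted p = 0.0584). Ifit3 read 466.5 and 344.9 in the heterozygous pools, against 596.1 and 574.1 in the wild-type pools (log2 change -0.54, SE 0.29, adjusted p = 0.175). Their heterozygous pools lay below the wild-type pools in each case (as for 35.5% of all tested probe sets), with signals near the limit for testing. The Ifit2 call did not hold without heterozygous pool 1 (-0.87), wild-type pool 1 (-1.19) or wild-type pool 2 (-0.95).

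The small hydrophobic proteins Ifi27 and Ifi27l2a are encoded side by side on chromosome 12, and both genes were lower (19.5% of all tested genes were). Ifi27 read 5037.6 and 4174 in the heterozygous pools, against 9249.7 and 7289.1 in the wild-type pools (log2 change -0.84, SE 0.17, adjusted p = 0.00520). Ifi27l2a read 2467.9 and 1766.5 in the heterozygous pools, against 3305.3 and 3162.7 in the wild-type pools (log2 change -0.63, SE 0.19, adjusted p = 0.0297). Ifi30, a thiol reductase that prepares antigens in lysosomes of antigen-presenting cells, read 933.2 and 633.7 in the heterozygous pools, against 1520.3 and 1388.8 in the wild-type pools (log2 change -0.92, SE 0.23, adjusted p = 0.0133). For these 3 genes heterozygous pool 2 was the lowest sample. Without it no call held (-0.70 for Ifi27, -0.39 for Ifi27l2a and -0.64 for Ifi30). The Ifi27l2a call also ended without wild-type pool 1 (-0.60) or wild-type pool 2 (-0.66), with arrays shifted to a common median (-0.45, adjusted p = 0.0998) and with no mean-variance trend (adjusted p = 0.0693), and that of Ifi30 without wild-type pool 1 (-0.85).

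**Figure D4:**
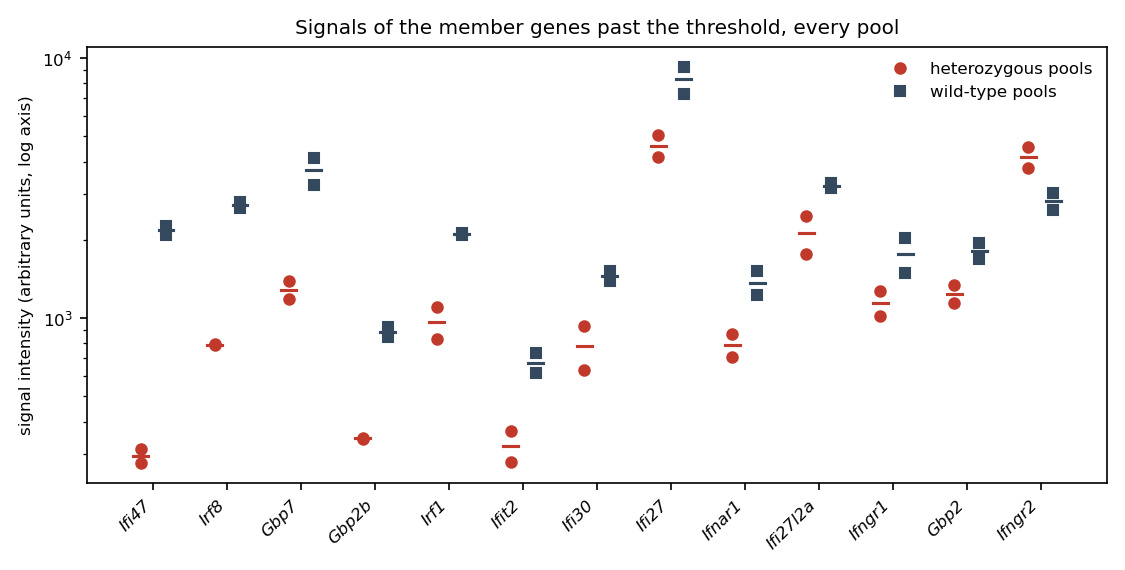
Signal intensity (arbitrary units, log axis) of the 13 member genes past the threshold, with a point for every pool (heterozygous circles left of wild-type squares) and a bar at the mean of 2 pools. The genes were picked by the threshold, and in all 13 the genotypes do not overlap. Of all tested probe sets, 35.5% did not overlap on the lower side and 34.6% on the higher side. Only Ifngr2 is higher in the heterozygous pools.

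The other 11 tested effectors, Gbp3, Ifit1 and Ifit3 among them, had log2 changes of -0.83 to 0.05 and did not pass. Isg15, a ubiquitin-like protein that is conjugated to targets during the interferon response, read 959.4 and 1270.3 in the heterozygous pools, against 1257.8 and 1633.1 in the wild-type pools (log2 change -0.38, SE 0.22, adjusted p = 0.208). The genotypes overlapped for this gene. Ifitm3, a membrane protein that blocks entry of viruses, read 11527.8 and 13141.1 in the heterozygous pools, against 10848.5 and 12971.3 in the wild-type pools (log2 change 0.05, SE 0.15, adjusted p = 0.810). Its genotypes overlapped too, and with arrays centred on sarcomere genes its change was -0.58. Ifih1, a sensor of double-stranded RNA, had a log2 change of -0.30, and Isg20, an exonuclease, had one of 0.04. The p200 genes Ifi204 and Ifi207 had changes of -0.49 and -0.08, each on a probe set of the kind that detects several members of a gene family. Ifi35 had a change of -0.49 and Ifitm10 one of 0.02.

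The 8 untested effector genes were Ifi202b, Ifi209, Ifitm1, Ifitm2, Ifitm6, Mx1, Mx2 and Oas1g. Together with the 2 dim probe sets of Ifi204 they read 9.2 to 358.9. Mx1, an antiviral GTPase, read 69.1 and 101.2 in the heterozygous pools, against 148.4 and 170.1 in the wild-type pools. Over all 21 untested member probe sets, the pools did not overlap on the lower side for 6 and on the higher side for 2, and they overlapped for 13. That is 28.6% lower and 9.52% higher, against 20.8% lower and 20.8% higher of all 4969 untested probe sets. These values were given no test.

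Of 43 tested interferon pathway genes outside the name rule, 23 were lower by limma (53.5%, against 19.5% of all tested genes). None was higher by limma (against 19.5% of all). At an unadjusted p under 0.05, 3 were higher, and the share of all genes at that threshold is not given. Among the lower genes, Sp100 had a heterozygous mean (322.25) below the lowest mean tested (348.95), so it was tested through its wild-type pools. The count of lower genes was 15 without heterozygous pool 1, 14 without heterozygous pool 2 and 16 without either single wild-type pool. It was 9 with no dim probe set left out, where 5.83% of all probe sets were lower. With arrays shifted to a common median it was 18, with 3 higher, where 15.7% of all tested probe sets were lower and 26.1% higher. With a pool left out the lower share of all tested probe sets fell too, as given above with the member counts. The list was chosen with earlier results of these data known. Those with the smallest p were Psmb8 and Psmb9 (log2 changes -2.19 and -2.27), catalytic subunits of the immunoproteasome, and Ptpn6 (-2.36), a phosphatase of blood cells that damps receptor signals. Tap2, a peptide transporter (-1.85), Ccl5, a chemokine of T cells (-1.74), and Socs1 came next. Socs1, the feedback inhibitor of Janus kinases, read 671.3 and 1017.8 in the heterozygous pools, against 3320.2 and 3094.8 in the wild-type pools (log2 change -1.96, SE 0.22, adjusted p = 0.000263). The related inhibitor Socs3 did not pass (log2 change -0.78, SE 0.30, adjusted p = 0.0669). Among the kinases of the receptors, Jak1 was lower, with 2378.5 and 2255 in the heterozygous pools, against 3344.7 and 3986.2 in the wild-type pools (log2 change -0.66, SE 0.16, adjusted p = 0.0126). Jak2 (log2 change -0.35, SE 0.23, adjusted p = 0.251) and Tyk2 (-0.08, SE 0.30, adjusted p = 0.864) did not pass. In the same pools the T lymphocyte and thymus markers had a median log2 change of -2.95, and their part in the pathway genes' decreases was not tested.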

How the data were processed

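The authors deposited a linear intensity for every probe set on every array. The software and scaling behind it are not given in the sources used here. Trimmed means of the 4 arrays without control probe sets, with 2% removed at each end, ran from 1486.5 to 1488.07, so no scaling was added. The 66 control probe sets, which had no value in heterozygous pool 2, were removed. Low signals were raised to 36.25, the 10th percentile, which touched 0 values of tested members, and log2 was taken. The dimmest 40% of probe sets were set aside. The other 7453 were fitted in R 4.3.3 with limma 3.58.1 (lmFit and eBayes, with a mean-variance trend) on genotype alone. The two-sided p-values were adjusted after Benjamini and Hochberg, and the threshold was 0.05. With 2 pools a genotype, the smallest two-sided p of an exact permutation test is 0.333. Precision is limited by the number of arrays.

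A gene with several probe sets is described on the brightest. Any member could be named, and of the other pathway genes the 6 with the smallest p plus Jak1, Jak2, Tyk2, Socs1 and Socs3 were named. Sp100 was named in addition for its low heterozygous mean. The members, lists and tests were chosen with earlier results of these data known. Names came from the platform annotation (10833 probe sets with 1 symbol, 396 with several, 1237 with none), and promoter windows from RefSeq (GRCm38.p6). No genome build goes with the signals. Alternatives were other scalings, floors, filters, moderation, thresholds, the pool number as a block and each pool left out. The fit was tested on simulated data. Plots were drawn with matplotlib 3.10.9.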

Additional observations from a re-analysis of the deposited data

How the results depend on the processing

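On the deposited scale 13 member probe sets were lower and 1 was higher. Of the 12 member genes that were lower, 9 also passed under all 4 other scalings, 5 with any single pool left out (Gbp2b, Gbp7, Ifi47, Irf1 and Irf8) and 4 under every alternative in which they were tested (Gbp2b, Gbp7, Ifi47 and Irf8). With single pools left out, lower member probe sets numbered 7 to 8, higher ones 0 to 2, lower pathway genes 14 to 16, higher pathway genes 0 to 1, and all calls 1707 to 2289. With arrays centred on sarcomere genes, 33 member probe sets were lower and 0 higher, and the member median was -1.03. Of all tested probe sets, 52.5% were lower and 2.90% higher on that scale. Of the 41 tested, 40 had a log2 change below 0. The genes that turned below 0 were Ifngr2 (-0.068), Ifitm3 (-0.58), Irf2bp1 (-0.53), Isg20 (-0.59), Stat3 (-0.22), Irf7 (-0.50), Ifnab (-0.29) and Ifitm10 (-0.61). This centring lowers the value of every gene alike. With a common median of the arrays, 2 member probe sets were higher, where 26.1% of all tested probe sets were. The member median was then -0.22, and 3 pathway genes were higher. Under quantile normalization the member median was -0.26 with 1 pathway gene higher, where 20.3% of all tested probe sets were higher. Cyclic loess, the lowest 60% left out and no mean-variance trend each gave 1 higher pathway gene, and the last gave 0 higher member probe sets. With no dim probe set left out, all 62 were tested, with 4 lower and 0 higher, a median of -0.29, 9 lower pathway genes and 1206 calls in all. At a threshold of 0.01 there were 6 lower member probe sets (14.6%, against 13.0% of all tested probe sets) and 0 higher (against 9.27% of all). There were 14 lower pathway genes and 1659 calls at that threshold. At 0.10 there were 2 higher member probe sets, where 22.3% of all tested probe sets were higher, and 3 higher pathway genes.

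The labels number the pools 1 and 2 in both genotypes without saying that a number marks a shared batch. Deviations of same-numbered pools from their genotype means correlated at 0.158 across probe sets. With the pool number as a replicate block, 13 member probe sets were lower and 2 higher (Stat3, log2 change 0.41, adjusted p = 0.0446, in addition), and 2 pathway genes were higher. In that fit 21.3% of all tested probe sets were lower and 19.4% higher.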
